A study of Saccharomyces cerevisiae with 151 samples.

Results

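The histidine biosynthesis genes HIS1, HIS2, HIS4, HIS5, HIS6 and HIS7 of Saccharomyces cerevisiae were followed across all strains and times of an array study. The members were the probe sets annotated to these genes, and HIS3 was left out because the strain background carries a partial HIS3 deletion. Each of the 6 genes had 1 probe set, with no mark of cross-hybridisation, among 5656 genes with a probe set of their own. All 6 passed the filter on low signals, as did 5611 of the 5656. By the RefSeq annotation of assembly R64, HIS1 is YER055C on chromosome V, HIS2 is YFR025C on chromosome VI and HIS4 is YCL030C on chromosome III. HIS5 (YIL116W) and HIS6 (YIL020C) both lie on chromosome IX, and HIS7 is YBR248C on chromosome II.

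The study measured RNA on 151 single-colour Affymetrix arrays in BY4741, a laboratory strain of yeast, before and after 100 mM 3-aminotriazole (3AT) was added to cells in SC medium at 28 °C. Arrays were made at 0, 10, 20, 30, 45 and 60 min for wild type (WT), for single deletions of GCN4, LEU3 or GAT1 (gcn4, leu3, gat1) and for strains that lack a pair of these genes (gat1gcn4, gcn4leu3, gat1leu3), with 90 and 120 min added for WT and the single deletions. Each strain and time had 3 arrays, except 5 groups with 2: the 60 min group of gcn4, the 20 min group of gat1, the 0 min and 45 min groups of gat1gcn4 and the 45 min group of gat1leu3. A met31 deletion, with a single array per time, was left out of all tests. All strains, WT included, share the BY4741 background. The 0 min sample was taken at an OD600 of 0.5, before 3AT. Per the growth protocol each culture was grown in a volume that supplied all its times, and the labels do not say that replicate numbers stand for separate cultures, so the p-values measure the spread between these arrays, which may be technical.

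Histidine is made from phosphoribosyl pyrophosphate (PRPP) and ATP by a linear pathway that yeast uses when the medium does not supply enough of the amino acid. Its genes belong to general amino acid control, in which the transcription factor Gcn4 binds upstream of biosynthesis genes and raises their transcription when uncharged tRNA accumulates and the kinase Gcn2 is active. 3AT inhibits the dehydratase encoded by HIS3, in the middle of the pathway. Leu3 regulates branched-chain amino acid genes, and Gat1 is a GATA factor of nitrogen catabolite repression.

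The deleted genes were checked first. GCN4 had a median signal of 7376 on the 88 arrays of strains that carry it and of 42.6 on the 57 arrays of strains that lack it, with no overlap. Among the latter its median was 258 in gcn4, higher than the 27.1 in gat1gcn4 and 17.9 in gcn4leu3. Signals here are MAS5 values after each array was multiplied by 1 factor to bring its 2% trimmed mean to 500, and are comparable across arrays but not between probe sets. LEU3 and GAT1 also read low on arrays of their deletions, with medians of 6.06 and 7.25 against 118 and 124 elsewhere, but the ranges overlapped for both. GAT1 read up to 39.8 on its deletion arrays and down to 24.7 elsewhere, and LEU3 up to 35.7 against down to 1.05 on 1 array. In 2 libraries a targeted gene stood apart from its group. The library labelled gcn4 90 min replicate 3 had a GCN4 signal of 2285, against at most 434 on the other arrays lacking GCN4, and the library labelled WT 30 min replicate 2 had that LEU3 signal of 1.05, where the next lowest array with LEU3 read 63.7. The counts of called members given here stayed within 1.5 times their values without these 2 libraries, apart from those against WT at 90 and 120 min, which were not recomputed. Of the mating type markers, the 5 of the a type that BY4741 has (MFA1, MFA2, STE2, STE6, BAR1) had medians of 353 to 12880, and the 3 of the alpha type (MF(ALPHA)1, MF(ALPHA)2, STE3) of 21.8 to 37.2. Single arrays departed from this, MFA1 at 3.27 at its lowest and MF(ALPHA)1 at 384.5 at its highest. The probe set used for MFA1, which gave the median of 12880, carries a mark of cross-hybridisation. On deposited scale the arrays differ: 78 were at a trimmed mean of 500, and 73 ran from 22.4 to 104.5 before rescaling. The latter are replicate 3 of gcn4 and leu3 and all arrays of the double deletions and met31, so a double deletion against WT also compares deposited scales, and strain and scale cannot be told apart there.

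In WT, HIS1 and HIS2 changed over time after 3AT (limma's moderated F-test, called at an adjusted p below 0.05), with their highest means at 20 min and their lowest at 45 min. HIS1 encodes ATP phosphoribosyltransferase, the enzyme of the committed step. Its signals on the 3 WT arrays were 6735, 7806 and 8807 before 3AT (0 min). They were 11700, 12300 and 11670 at 20 min, then 4963, 5346 and 4054 at 45 min. The 20 min arrays were all above, and the 45 min arrays all below, those of 0 min. HIS1 varied over time with an adjusted p of 3.9e-05 (limma), and the highest of its 8 time means was 2.48 times the lowest. HIS2 encodes the phosphatase that makes histidinol. It read 678, 600 and 676 before 3AT. At 20 min the arrays read 1502, 995 and 890, then 483, 493 and 311 at 45 min, again without overlap, and HIS2 varied with an adjusted p of 0.0058. Leaving out any 1 WT replicate ended the HIS2 call (adjusted p of 0.055 to 0.14). The WT arrays did not overlap those of 0 min for 25.5% of all genes at 20 min and 22.1% at 45 min.

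The other 4 members did not pass in WT. HIS5, the histidinol-phosphate aminotransferase, averaged 1881 ± 274 (SD, n = 3) at 20 min and 796 ± 82.0 at 45 min (adjusted p over time 0.082, and 0.021 with the replicate block). HIS4, a multifunctional enzyme of early and final steps, averaged 9469 ± 1421 at 10 min and 4904 ± 452 at 45 min (0.36). HIS7, the amidotransferase and cyclase that makes imidazole glycerol phosphate and releases AICAR, averaged 2032 ± 445 at 10 min and 795 ± 190 at 90 min (0.10). HIS6, the isomerase before it, ranged from 158 ± 28.5 at 45 min to 265 ± 73.3 at 90 min (0.60). The count was thus 2 of 6 members, where 7.2% of all genes tested were called. With the WT arrays fitted alone 5 of the 6 were called, HIS6 being the exception, and with array quality weights 5.

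No member passed at any single WT time against 0 min in the fit over all strains. The arrays of 45 min did not overlap those of 0 min for 5 of the 6 members, against 22.1% of all genes. At 20 min this held for 3 of the 6, against 25.5%. Of 42 pairs of member and time, 0 passed after limma's adjustment and 8 had an unadjusted p below 0.05, where 1.26% of all pairs of gene and time passed. Among the 8, HIS1 differed by 0.62 ± 0.24 (log2, SE) at 20 min and by -0.70 ± 0.24 at 45 min, with adjusted p of 0.18 and 0.16. The count was 3 on the arrays deposited at the common scale, 6 with array weights, 2 with WT alone and 1 with the replicate block (HIS1 at 45 min, adjusted p 0.044). At 120 min HIS1 averaged 7334 ± 790, beside 7783 ± 1036 at 0 min, and HIS5 averaged 1405 ± 115.

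**Figure D1:**
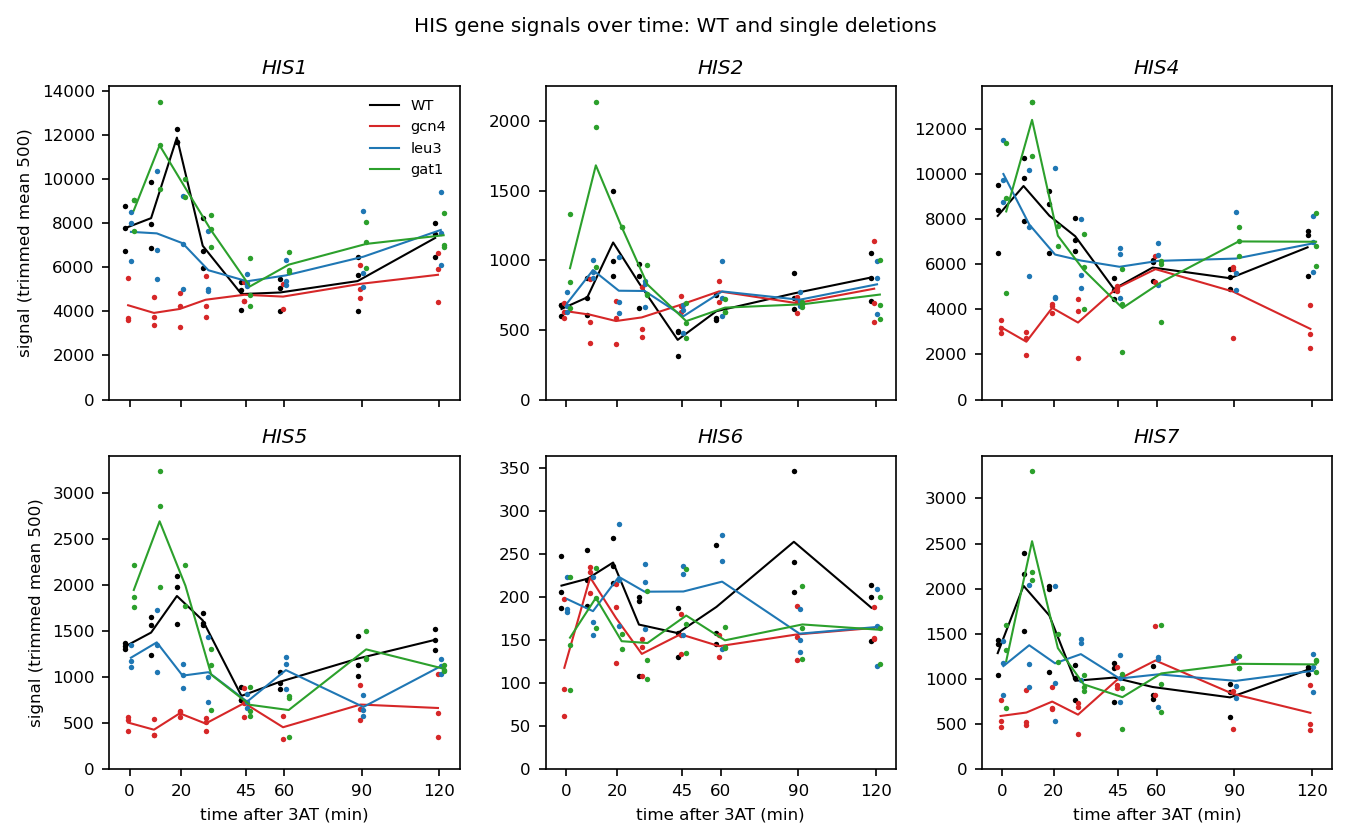
Signal of each HIS gene (y axis, trimmed mean of 500 per array, linear from 0) against minutes after 3AT (x axis) in WT and the 3 single deletions, with arrays as points, shifted sideways by strain, and group means as lines. WT HIS1 peaks at 11890 at 20 min and falls to 4788 at 45 min, while gcn4 stays between 3931 and 5662, and gat1 has its highest means at 10 min.

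Before 3AT, at 0 min, HIS1, HIS4 and HIS5 were lower in all 3 strains lacking GCN4 than in WT. HIS5 showed this most plainly: the WT arrays read 1367, 1300 and 1334, those of gcn4 531, 419 and 566, those of gat1gcn4 400 and 784, and those of gcn4leu3 330, 494 and 363. The highest array without GCN4 was well under the lowest WT array. HIS5 differed from WT by -1.38 ± 0.33 in gcn4 (adjusted p 0.0027), -1.23 ± 0.37 in gat1gcn4 (0.032) and -1.73 ± 0.33 in gcn4leu3 (1e-04), which is 2.61-, 2.34- and 3.32-fold lower.

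HIS4 spread more between strains. Its 0 min signals were 8427, 6516 and 9493 in WT, 3151, 2967 and 3546 in gcn4, 735 and 3217 in gat1gcn4, and 1667, 1855 and 3624 in gcn4leu3. WT did not overlap any of them, and the 2 gat1gcn4 arrays lay more than 4 times apart. The differences from WT were -1.32 ± 0.34 (0.0055), -2.37 ± 0.37 (1.6e-06) and -1.84 ± 0.34 (4.4e-05). HIS1 read 3597, 3708 and 5535 in gcn4 and 4925, 4512 and 3971 in gcn4leu3, all below the lowest WT array of 6735. It was 1.84-fold lower in gcn4 (0.011), 1.89-fold in gat1gcn4 (0.023) and 1.74-fold in gcn4leu3 (0.037).

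HIS7, HIS6 and HIS2 gave fewer calls at 0 min. HIS7 read 1436, 1038 and 1383 in WT and between 235 and 791 on the 8 arrays lacking GCN4, so the groups did not overlap. Its difference passed in gat1gcn4 (-1.63 ± 0.43, adjusted p 0.009) but not in gcn4 (-1.12 ± 0.38, 0.069) or gcn4leu3 (-1.13 ± 0.38, 0.089). HIS6 passed in gcn4 alone of the 3 (-0.90 ± 0.29, 0.049), with arrays at 61.3, 93.8 and 199 that overlapped the WT range of 187 to 248, and that call was lost without the 2 libraries named above (0.05) and without any 1 WT replicate, among other settings. HIS2 did not pass in any, with differences of -0.12 to 0.05 and, in gcn4, a 95% interval of -0.56 to 0.49.

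In all, 11 of 18 pairs of member and strain were called at 0 min, each lower, against 4.2% of all pairs. Of the 6 members 4 were lower in gcn4, where 2.01% of all genes were, 4 in gat1gcn4 (2.8%) and 3 in gcn4leu3 (1.44%). Arrays did not overlap those of WT for 17.6%, 34.5% and 26.4% of all genes in these strains, in that order. In bulk cultures, fewer cells with a transcript and less of it per cell cannot be told apart. The count fell to 5 without WT replicate 3, to 7 without WT replicate 1, WT replicate 2, gcn4 replicate 2 or gat1gcn4 replicate 1, and rose to 12 without gcn4 replicate 3 or gat1gcn4 replicate 3. HIS4 and HIS5 in gcn4leu3 kept their calls whichever replicate was left out. Without gat1gcn4 replicate 1 none of the 4 gat1gcn4 calls remained, and HIS4 there differed by -1.32 (0.11). The gat1gcn4 group at 0 min has 2 arrays, so leaving out replicate 1 or 3 leaves 1, which is assumed to vary like the other groups. In gcn4, HIS4 was lost without WT replicate 3 (0.068) or gcn4 replicate 2 (0.053), HIS5 without gcn4 replicate 2 (0.063), and HIS1 without WT replicate 3 (0.094), gcn4 replicate 1 (0.16) or gcn4 replicate 2 (0.13). HIS5 in gat1gcn4 and HIS1 in gcn4leu3 were lost without any 1 WT replicate, HIS1 in gcn4leu3 also without any of its own, HIS1 in gat1gcn4 without WT replicate 2 or 3 and HIS7 in gat1gcn4 without WT replicate 1. With array weights HIS1 (0.23), HIS5 (0.28) and HIS7 (0.20) in gat1gcn4 did not pass. Among gcn4 and WT arrays deposited at the common scale it was 5 of 6 for gcn4, HIS7 included (-1.33, adjusted p 0.0034).

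Means over the times 0 to 60 min, 1 per strain and replicate number, also had HIS1, HIS4 and HIS5 lower in the 3 strains without GCN4, with smaller errors than at 0 min alone. The means of gcn4 replicate 2, gat1 replicate 3, gat1gcn4 replicates 1 and 2 and gat1leu3 replicate 1 held 5 of the 6 times. The means compared thus cover partly unlike times. HIS5 averaged 1280 ± 8.61 (SD, n = 3) in WT, then 1250 ± 183 in gat1, 1130 ± 352 in gat1leu3 and 1050 ± 76.8 in leu3, and 565 ± 36.4 in gcn4leu3, 524 ± 28.8 in gcn4 and 476 ± 91.9 in gat1gcn4. The 3 strains without GCN4 formed a lower block, from 387 to 605, and the 4 with it ran from 726 to 1420. Neighbours in this order overlapped within each block, while leu3, at 969 to 1120, lay below the WT means of 1270 to 1290 without passing the test (-0.29 ± 0.19, adjusted p 0.64). Against WT the difference was -1.27 ± 0.19 in gcn4 (adjusted p 0.00033), -1.42 ± 0.19 in gat1gcn4 (5.4e-05) and -1.16 ± 0.19 in gcn4leu3 (0.00044).

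For HIS4, gat1gcn4 stood apart below the other strains without GCN4. The strain means were 7090 ± 513 in WT, 6780 ± 689 in leu3, 6540 ± 1010 in gat1 and 6360 ± 1090 in gat1leu3, and 3720 ± 642 in gcn4leu3, 3690 ± 542 in gcn4 and 1950 ± 464 in gat1gcn4. gcn4 and gcn4leu3 overlapped, and gat1gcn4, at 1540 to 2460, lay below both. HIS4 differed from WT by -0.95 ± 0.18 in gcn4 (adjusted p 0.003), -1.88 ± 0.18 in gat1gcn4 (9e-07) and -0.94 ± 0.18 in gcn4leu3 (0.0022). HIS1 averaged 7020 ± 393 in WT and 3680 ± 838 to 4310 ± 756 in the strains without GCN4, and gat1, at 7540 to 7850, was just above the WT means of 6750 to 7470. HIS1 was lower than WT by 1.64-fold in gcn4, 1.93-fold in gat1gcn4 and 1.69-fold in gcn4leu3 (adjusted p of 0.011, 0.00043 and 0.0049).

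HIS7 was lower in the same 3 strains, by -0.78 ± 0.19 (0.018), -1.11 ± 0.19 (0.00043) and -0.61 ± 0.19 (0.042). HIS6 was lower in gat1gcn4 (-0.50 ± 0.15, 0.02), and its 115 to 160 there lay under the WT means of 180 to 213. HIS2 had means of 532 to 777 without GCN4 and 638 to 768 in WT, which overlapped, and its differences of -0.13 to -0.19 passed in no strain. The count was 13 of 18 pairs, each lower, against 12.3% of all pairs, or 1.73%, 6.9% and 4.08% of all genes called lower in gcn4, gat1gcn4 and gcn4leu3. Means of these strains did not overlap those of WT for 20.8%, 34.5% and 41.2% of all genes, in that order. HIS4 and HIS5 kept their calls in these 3 strains whichever replicate was left out, as did HIS1 and HIS7 in gat1gcn4 and HIS1 in gcn4leu3. HIS1 in gcn4 (adjusted p up to 0.087), HIS7 in gcn4 (0.15) and in gcn4leu3 (0.18), and HIS6 in gat1gcn4 (0.11) did not. HIS7 in gcn4 and gcn4leu3 was also lost with means over 10 to 60 min (0.051 and 0.098) and with all arrays of 0 to 60 min in 1 fit with an estimated correlation (adjusted p of 0.058 and 0.075).

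**Figure D2:**
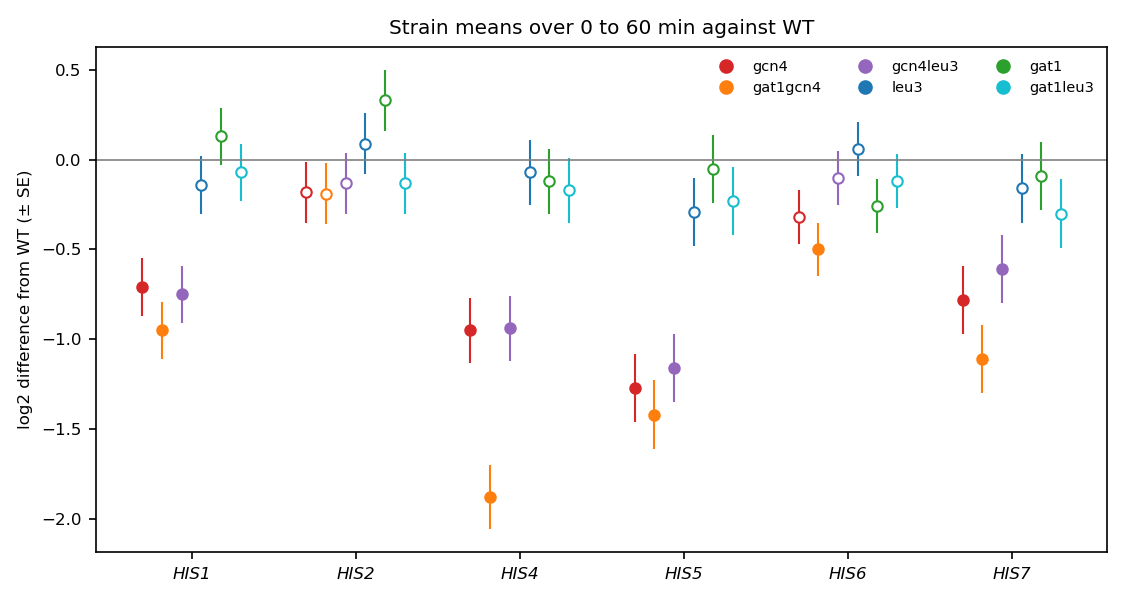
Log2 difference of each HIS gene from WT (y axis, with SE) in the means over 0 to 60 min, for 6 deletion strains (colours, 3 means each), with filled symbols where limma's adjusted p was below 0.05. HIS1, HIS4, HIS5 and HIS7 are filled in gcn4, gat1gcn4 and gcn4leu3, from -0.61 to -1.88, HIS6 in gat1gcn4 alone of the 6 strains, and HIS2 in none of the 6.

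Values at single times are given next, and the test of a difference between times follows them. From 0 to 30 min every one of the 35 arrays without GCN4 read below the lowest WT array of its time for HIS1, HIS4 and HIS5. Of all genes tested, 0.552% did so. For HIS7 it was 31 of the 35 arrays, for HIS2 20 and for HIS6 18. At 45 and 60 min together 7 of 16 such arrays were below WT for HIS1, 10 for HIS4, 5 for HIS7 and 15 for HIS5. In the strains with GCN4, by comparison, 18, 14, 12 and 19 of 35 arrays were below the lowest WT array for HIS1, HIS4, HIS7 and HIS5 at 0 to 30 min, and 8, 9, 5 and 12 were above the highest. At 45 and 60 min 0, 7, 6 and 11 of 17 arrays with GCN4 were below WT for the same 4 genes in that order. HIS2 and HIS6 were below WT on 8 and 16 of the 35 arrays with GCN4 at 0 to 30 min. At 45 and 60 min they were below on 1 and 4 of 16 arrays without GCN4 and on 1 and 4 of 17 with it.

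Set against WT at the same time, 30 of 54 pairs of member and strain passed at 10, 20 and 30 min, each lower, where 7.23% of all pairs passed, and 2 of 36 at 45 and 60 min, where 3.66% did. These comparisons at single times after 0 min were chosen after the values had been seen. In gcn4, HIS4 was 3.70-fold lower at 10 min (adjusted p 3.9e-05), HIS7 3.24-fold lower at 10 min (0.0022), HIS1 2.92-fold lower at 20 min (5.8e-07) and HIS5 3.41-fold lower at 10 min (9.2e-05). At 45 min the same differences in gcn4 were 0.01 for HIS4, -0.02 for HIS7, -0.01 for HIS1 and -0.16 for HIS5 on the log2 scale, and none passed. Over all 6 members the differences at 45 min ran from -0.16 to 0.67. At 60 min HIS5 differed by -1.08 ± 0.37 (0.23) and HIS4 by -0.02 ± 0.37, and at 90 min HIS5 by -0.78 ± 0.33 (0.66). At 120 min HIS4 differed by -1.13 ± 0.34 (0.079), HIS5 by -1.19 ± 0.33 (0.052), HIS7 by -0.88 ± 0.38 (0.35) and HIS1 by -0.39 ± 0.24 (0.63). The arrays of gcn4 and WT did not overlap for HIS5 at 60, 90 and 120 min. Nor did they for HIS6 at 90 min or for HIS4 and HIS7 at 120 min, although none of these passed. Arrays did not overlap for 27.4%, 15.8% and 14.6% of all genes at 60, 90 and 120 min. The 2 calls at 60 min were HIS4 (-1.14 ± 0.34, 0.021) and HIS5 (-1.01 ± 0.33, 0.043) in gat1gcn4. They were lost without any 1 WT replicate or without gat1gcn4 replicate 2, when the count was 0. It was 1 without gcn4 replicate 2, gat1gcn4 replicate 1 or any gcn4leu3 replicate, and 4 without gat1gcn4 replicate 3 or with each strain fitted with WT alone.

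For HIS4 the means of WT and gcn4 lay close at 45 and 60 min and apart at 10 and 120 min. WT HIS4 averaged 9469 ± 1421 at 10 min, 4904 ± 452 at 45 min and 5853 ± 501 at 60 min, while gcn4 averaged 2565 ± 533, 4941 ± 119 and 5783 ± 807 (n = 2 at 60 min). The gcn4 arrays read 1967, 2738 and 2990 at 10 min and 4813, 5048 and 4961 at 45 min, so these times did not overlap, but HIS4 did not pass the test over time in gcn4 (adjusted p 0.11). It passed at 0.0078 on the arrays deposited at the common scale and at 0.043 without the 2 libraries set apart above. At 90 min HIS4 in gcn4 read 5865 and 5791, and 2714 in the library labelled replicate 3, the one with the high GCN4 signal. At 120 min it read 4181, 2290 and 2928 in gcn4 against 5485, 7470 and 7295 in WT, without overlap.

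The change from 0 to 60 min was then compared with that of WT. For HIS4 it exceeded the WT change by 1.30 ± 0.50 (log2) in gcn4, 1.23 ± 0.50 in gat1gcn4 and 1.50 ± 0.47 in gcn4leu3, with adjusted p of 0.56, 0.41 and 0.33. For HIS7 in gcn4 it was 1.47 ± 0.57 (0.59) and for HIS1 in gcn4 0.83 ± 0.35 (0.66). Over all 6 members the excess ran from 0.30 to 1.47 in gcn4, -0.14 to 1.23 in gat1gcn4 and 0.17 to 1.50 in gcn4leu3. None of 36 pairs of member and strain passed in limma, 9 had an unadjusted p below 0.05, and 0.235% of all pairs passed. With array weights 4 passed, and with each strain fitted with WT alone 1 did, HIS4 in gcn4leu3 (0.011). At 90 and 120 min 0 of 12 pairs of member and time passed between gcn4 and WT, 5 with an unadjusted p below 0.05, where 0.561% of all pairs passed.

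**Figure D3:**
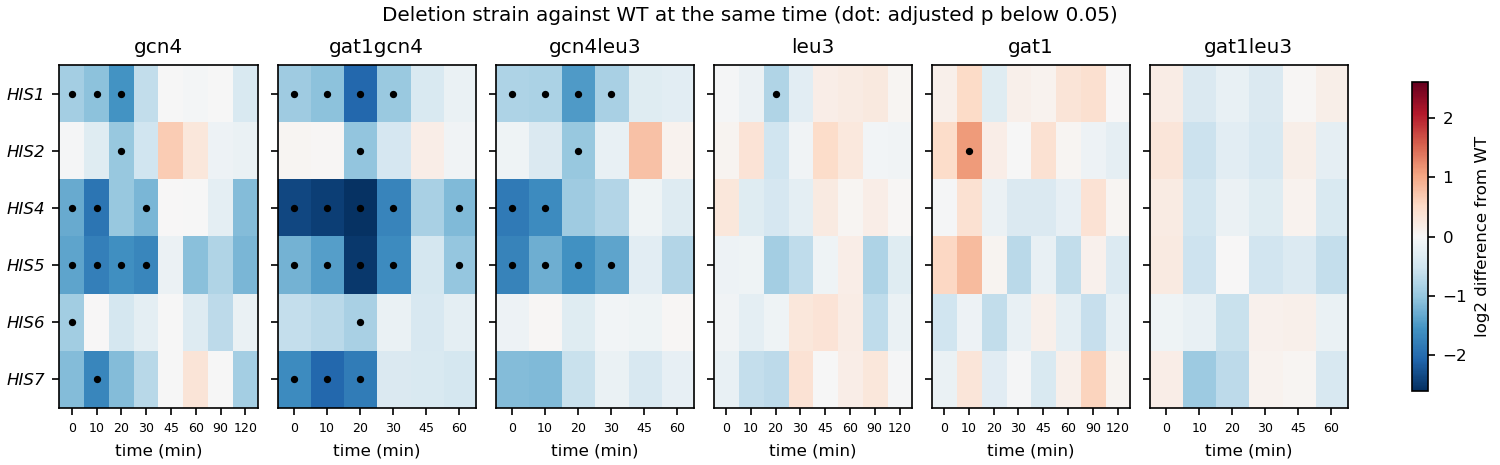
Log2 difference from WT at the same time (colour, blue lower, red higher) for the 6 HIS genes (rows) at each time (columns) in 6 deletion strains (panels), with dots where limma's adjusted p was below 0.05. In the 3 left panels, without GCN4, 11 dots lie at 0 min, 30 at 10 to 30 min, 2 at 60 min and none at 45, 90 or 120 min.

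HIS2, not called at 0 min, was lower in all 3 strains without GCN4 at 20 min. At that time the WT arrays read 1502, 995 and 890, those of gcn4 398, 587 and 709, those of gat1gcn4 603, 852 and 297 and those of gcn4leu3 563, 515 and 561. No array without GCN4 reached the lowest WT array. Arrays did not overlap WT at 20 min for 19.6% of all genes in gcn4, 25.3% in gat1gcn4 and 34.3% in gcn4leu3. HIS2 was 1.97-fold lower in gcn4 (adjusted p 0.014), 2.02-fold in gat1gcn4 (0.0032) and 1.99-fold in gcn4leu3 (0.0086). At 45 and 60 min together 8 of the 16 arrays without GCN4 lay above the WT range and 1 below it, and the differences from WT ran from -0.09 to 0.77 with no call.

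HIS6 was called seldom. Among the 9 comparisons without GCN4 at 10 to 30 min it passed in 1, gat1gcn4 at 20 min, where its arrays read 107, 157 and 117 against 269, 236 and 217 in WT (1.81-fold lower, 0.03). In gcn4 it was higher at 10 min (230, 205 and 235) than at 0 min (61.3, 93.8 and 199) by 0.97 ± 0.29 (0.019). That was the only call among 102 pairs of member and later time against the strain's own 0 min in the strains without GCN4, where 2.86% of all pairs passed. It was lost without gcn4 replicate 1 or 2, and other settings gave 0 to 21 calls in this comparison.

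Loss of GAT1 or LEU3 on top of GCN4 was tested on the strain means. HIS4 was lower in gat1gcn4 than in gcn4 by -0.93 ± 0.18 (adjusted p 0.004), or 1.91-fold, and this was the 1 call among 12 pairs, where 5.28% of all pairs were called and 3.65% of genes were lower in gat1gcn4. It stayed a call with every single replicate left out. The 3 gat1gcn4 means of HIS4 reached at most 2460 and those of gcn4 began at 3100. In gcn4leu3 the HIS4 means began at 3190. Means of gat1gcn4 and gcn4 did not overlap for 21% of all genes. All arrays of both double deletions were deposited unscaled, while 15 of 23 gcn4 arrays were at the common scale. The median GCN4 signal differed too, 258 in gcn4 and 27.1 in gat1gcn4. Whether deposited scale or GCN4 signal bears on the HIS4 difference was not tested. The other 5 members differed from gcn4 by -0.02 to -0.33 in gat1gcn4, and the 6 members by -0.04 to 0.22 in gcn4leu3, with 95% intervals between -0.73 and 0.57. With array weights HIS1 in gat1gcn4 was called too (-0.34, 0.049).

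**Figure D4:**
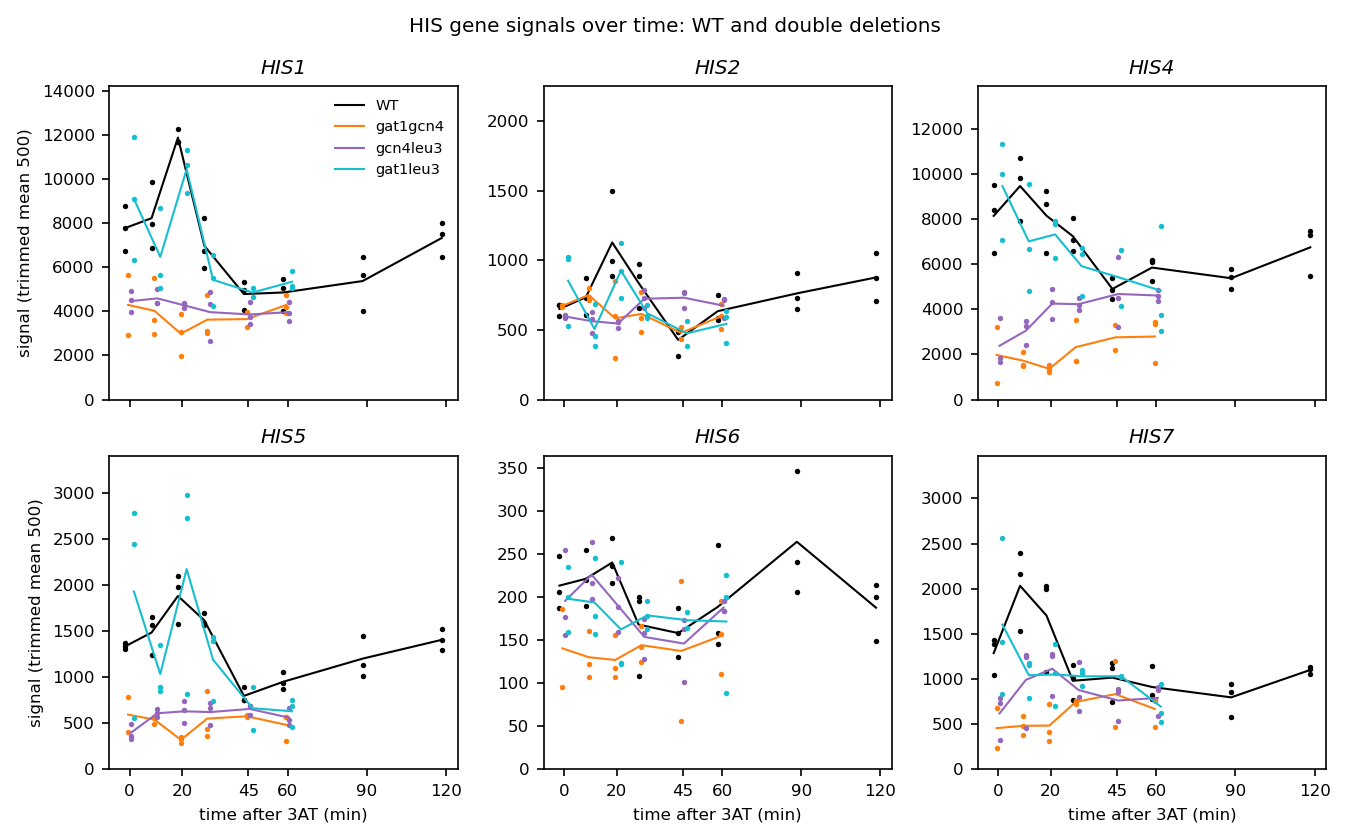
Signal of each HIS gene (y axis, trimmed mean of 500 per array, linear from 0) against minutes after 3AT (x axis) in WT and the 3 double deletions, with arrays as points, shifted sideways by strain, and group means as lines. At 0 to 30 min the strains without GCN4 have means below WT for HIS1, HIS4 and HIS5, with gat1gcn4 the lowest of the strains plotted for HIS4.

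In leu3, gat1 and gat1leu3, which keep GCN4, few differences from WT passed. At 0 min 0 of 18 pairs passed in limma and 0 had an unadjusted p below 0.05, against 2.32% of all pairs called. In the strain means the counts were again 0 and 0, against 2.36%, with 95% intervals between -0.70 and 0.67 (log2). All strains share the WT arrays as their reference. At 10 to 60 min 2 of 90 pairs passed (1.71% of all pairs). HIS1 was lower in leu3 at 20 min, where the arrays read 5019, 7050 and 9218 against 11670 to 12300 in WT (-0.79 ± 0.24, adjusted p 0.037). All 8 arrays of leu3, gat1 and gat1leu3 at 20 min, from 5019 to 11330, were below the lowest WT array for HIS1. HIS2 was higher in gat1 at 10 min, where the arrays read 2141, 1960 and 950 against 606 to 873 (1.11 ± 0.26, 0.012). The count of 2 calls fell to 0 without WT replicate 1, WT replicate 2 or gat1 replicate 1. It fell to 1 without WT replicate 3, leu3 replicate 1, leu3 replicate 2 or gat1 replicate 2, or with median centring. It was 3 without gat1leu3 replicate 3, and rose to 8 on arrays deposited at the common scale and 11 with array weights. At 90 and 120 min 0 of 24 pairs passed in leu3 and gat1, 3 with an unadjusted p below 0.05, where 0.276% of all pairs passed.

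In gat1, the 8 times gave their highest means for all 6 members at 10 min. HIS5 read 2214, 1866 and 1759 before 3AT and 3237, 2861 and 1980 at 10 min. At 45 min it read 577, 631 and 888, then 777, 350 and 799 at 60 min. The arrays of 45 and 60 min were all below the lowest of 0 min, and HIS5 was 2.78-fold lower at 45 min (adjusted p 0.003) and 3.16-fold lower at 60 min (0.00061) than at 0 min. The F-test over time called HIS1 (0.0033), HIS2 (7.9e-05), HIS4 (0.0042), HIS5 (2.4e-07) and HIS7 (0.032) in gat1, 5 of 6 members against 10.4% of all genes. Without gat1 replicate 2 HIS5 alone of the 5 kept its call. HIS1 and HIS2 were also lost without gat1 replicate 1, and HIS7 without gat1 replicate 3. The change of HIS5 from 0 to 60 min differed from that of WT by -1.17 ± 0.47, which did not pass (0.87).

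In gat1leu3 the F-test called HIS1 (0.0015), HIS2 (0.043) and HIS5 (0.00064), 3 of 6 members against 5.67% of all genes, but the arrays of replicate 3 stood apart. HIS5 read 2451 and 2785 on replicates 1 and 2 at 0 min and 556 on replicate 3, 852, 895 and 1351 at 10 min, and 2977, 2725 and 817 at 20 min. Replicates 1 and 2 alternated high, low and high, and replicate 3 did not. At 0 min HIS5 differed from WT by 0.23 ± 0.33 (0.76) with all 3 and by 0.96 (0.018) without replicate 3, and the HIS5 call over time was lost without replicate 1 (0.19) or 2 (0.05). HIS1 was lost without replicate 2 (0.13), and HIS2 without replicate 1 (0.57), replicate 2 (0.58) and several replicates of other strains.

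Across the 6 deletion strains 8 of 36 pairs of member and strain varied over time, against 7.06% of all pairs, in gat1 and gat1leu3 only, with 0 of 6 in each of gcn4, gat1gcn4, gcn4leu3 and leu3. A call in one strain and none in another is not a tested difference. The count was 3 without gat1 replicate 2, 5 without gat1 replicate 1 or gat1leu3 replicate 2, and 19 with array weights, which called members in gcn4, gat1gcn4, gcn4leu3 and leu3 as well. Against their own 0 min, 6 of 114 pairs in leu3, gat1 and gat1leu3 passed (1.83% of all pairs), each lower, namely HIS5 at both 45 and 60 min in gat1 and gat1leu3, plus HIS1 and HIS4 in gat1leu3 for 60 min. The count was 2 without gat1leu3 replicate 1 or 2 and 14 without its replicate 3. With strain and replicate number as a block it was 12.

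**Figure D5:**
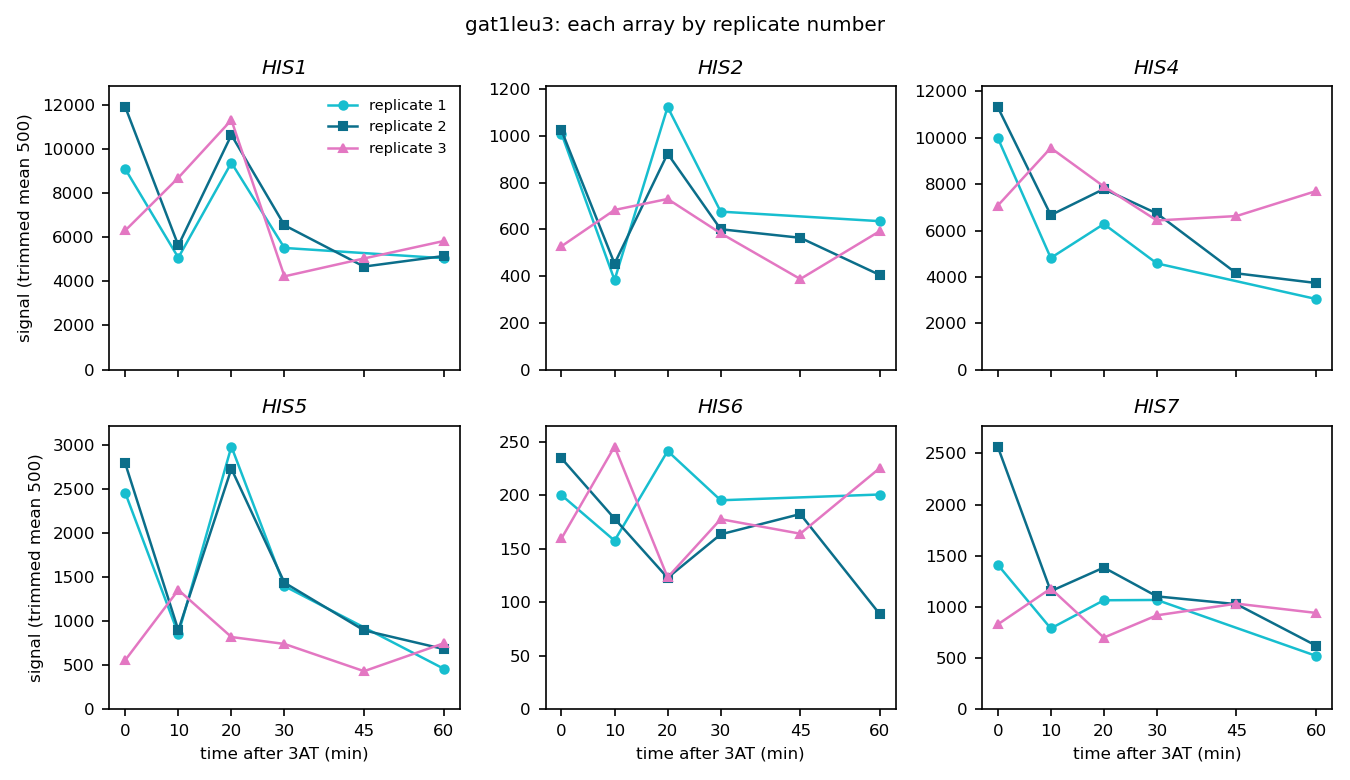
Signal of each HIS gene (y axis, trimmed mean of 500 per array, linear from 0) on every gat1leu3 array against minutes after 3AT (x axis), with 1 line per replicate number, replicate 1 lacking 45 min. Replicates 1 and 2 of HIS5 go from 2451 and 2785 at 0 min to 852 and 895 at 10 min and 2977 and 2725 at 20 min, while replicate 3 reads 556, 1351 and 817.

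In leu3, replicate 3 stood apart for HIS4 and HIS7 at 20 min, while its HIS5 signal of 1023 lay between the 882 and 1142 of replicates 1 and 2. At 0 and 90 min replicates 1 and 3 of leu3 were the closest pair for the members. HIS4 read 4515, 4526 and 10250 and HIS7 956, 531 and 2031 on replicates 1, 2 and 3 at 20 min, against 6517 to 9250 and 1077 to 2035 in WT. Over the 45 groups with 3 arrays, replicates 1 and 2 were the closest pair for the members in 28 groups and for all genes in 36.

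The members moved together to different degrees. Over the 50 group means of strain and time, Pearson's r of log2 values was 0.90 between HIS4 and HIS7 and between HIS1 and HIS5, 0.84 between HIS4 and HIS5, and 0.71 between HIS1 and HIS2. HIS6 reached at most 0.49, with HIS7. In the 20 groups without GCN4, the r of HIS4 and HIS7 was 0.83, that of HIS4 and HIS5 0.56, that of HIS1 and HIS5 0.48 and that of HIS1 and HIS2 0.41. The points share strains and cultures, so these values are descriptions. The spread between replicates, pooled over groups, was 0.281 (log2 SD) for HIS1, 0.315 for HIS2, 0.351 for HIS6, 0.404 for HIS5, 0.414 for HIS4 and 0.475 for HIS7, where the median gene had 0.412. Calls for HIS7 thus need larger differences than calls for HIS1.

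The genes most like the mean of the 6 members over the 50 group means were ARG4 (r = 0.93), the argininosuccinate lyase, SDT1 (0.92), a pyrimidine nucleotidase, ORT1 (0.92), the mitochondrial ornithine transporter, ARO5 (0.91), LYS1 (0.90), saccharopine dehydrogenase, and SSU1 (0.89), a sulfite pump. GCN4 itself had an r of 0.75, but it is deleted in 20 of the 50 groups, so this r largely restates the difference between strains. The r of the other genes rest on the same 50 groups, so they too take in the difference between strains with and without GCN4. In the strain means without GCN4, 12 of 18 pairs of arginine gene and strain and 7 of 21 pairs of lysine gene and strain were called lower, beside the 13 of 18 of the HIS genes. Of all pairs of gene and strain there, 12.3% were called in either direction. The arginine list had 6 tested genes (ARG1, ARG3, ARG4, ARG7, ARG8, CPA1) and the lysine list 7. Between gcn4 and the double deletions without GCN4 the arginine list had 7 of 12 calls and the lysine list 2 of 14, each lower. The HIS genes had 1 of 12 there, and 5.28% of all pairs were called. The difference between the lists was not tested.

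HIS3, the target of 3AT, has 2 probe sets, and both gave signals in this background with a partial HIS3 deletion, from 738 to 6674 for the first, used for the gene, in the strains with replicates. The sources used here do not say whether the probes lie in the deleted part. HIS3 was lower than WT at 0 min in gcn4 (-1.79 ± 0.32, adjusted p 3.4e-05), gat1gcn4 (-1.47 ± 0.36, 0.0044) and gcn4leu3 (-1.60 ± 0.32, 0.00034). In gat1gcn4 its change from 0 to 60 min exceeded that of WT by 1.79 ± 0.49 (0.038).

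Genes that supply or use the pathway's compounds were seldom called. No PRPP synthetase gene (PRS1 to PRS5), histidyl-tRNA synthetase (HTS1) or histidine permease (HIP1) was called at 0 min in any deletion strain. In the strain means of gat1gcn4, PRS4 was higher (0.71 ± 0.20, 0.016), and ADE17 and ADE13, which act on AICAR and on adenylosuccinate in purine synthesis, were lower (-1.17 ± 0.22, 0.001, and -0.70 ± 0.19, 0.012). ADE17 was also lower than in gcn4 (-1.05 ± 0.22, 0.006), as were 3.65% of all genes. PRS4 was 1 of 5 PRS genes. Of all genes, 13.1% were called higher and 6.9% lower than WT in the strain means of gat1gcn4. In those of gcn4leu3 and gat1leu3, 8.18% and 2.46% were called higher. BAS1, which with PHO2 activates purine genes and HIS4, was higher than WT in gat1gcn4 (0.85 ± 0.26, 0.025), gcn4leu3 (0.81, 0.045) and gat1leu3 (0.91, 0.04). In gat1, whose arrays were deposited at the common scale, it differed by a like amount that did not pass (0.82 ± 0.26, 0.24). The lowest WT signal of BAS1, 0.17, was in the library labelled WT 30 min replicate 2, where the next lowest WT array read 69.6, and on that array HTS1 was lowest too. PHO2 had a median of 3.06 in WT, near or below each array's 20th percentile of signal (12.99 to 31.4), and is given no direction. GCN2 was called in no comparison of strain means.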

How the data were processed

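RNA was measured on 151 Affymetrix arrays, and the deposited values are linear MAS5 signal intensities, per the submitters' processing notes. The authors left 73 arrays off the common scale, so each array was multiplied to a 2% trimmed mean of 500. Probe sets were named through GEO's platform annotation (6504 of 9335 with 1 gene), and 45 of 5656 genes were left out that in no strain and time group exceeded the array's 20th percentile of signal on 2 arrays (1 in groups of 2). Values were tested as log2(signal + 16), a scale that understates changes of low genes, with limma 3.58.1 in R 4.3.3 (moderated, intensity trend, Benjamini-Hochberg over 5611 genes, called below 0.05). One fit held 145 arrays in 50 groups (95 residual degrees of freedom), and a second held 21 means of strain and replicate number (14). Missing arrays were not imputed. Fold changes are on the log2(signal + 16) scale. Alternatives covered pseudocount, filter, scale, weights, variance model, replicate block, arrays fitted and each replicate left out. Same-numbered replicates of WT and other strains correlated at -0.07 to 0.38 at 0 min. In the strain means they correlated at -0.1 to 0.48, 10 of 18 over 0.1, with 0.36 to 0.48 in gcn4 and 0.34 to 0.41 in leu3. Numbers were not taken as pairs between strains in the fits, so any effect shared by a number is left in the spread. A group of 2 with 1 left out has its spread from the other groups. All 6 members entered every test, and some passages print values for part of them. Fixed lists of pathway genes and the 6 most alike genes are given beside them. The members and lists were chosen with earlier results of these data known. The number of arrays limits the precision, and the scripts were tested on simulated data.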

Additional observations from a re-analysis of the deposited data

Results flagged for a closer look

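The met31 deletion has 1 array at each of 6 times and no treatment label after 0 min, so its values entered no comparison. Of its 36 values of the 6 HIS genes 22 lay inside the range of the 3 WT arrays of the same time, 5 below and 9 above, which is what drew attention to the 9. HIS2 read 813 at 0 min, against a highest WT array of 678, and 520 at 45 min, against 493. HIS4 read 9660 at 0 min (highest WT array 9493), 10100 at 20 min (9250) and 9510 at 30 min (8064). HIS5 read 1660 at 10 min, close to the highest WT array of 1650. HIS7 read 1700 at 0 min (1436), 2230 at 20 min (2035) and 1620 at 30 min (1158). The 5 low values were HIS1 at 20 min (9979, lowest WT array 11670) and 30 min (5701, 5958) and HIS2 at 60 min (526, 572). HIS4 at 10 min (5165, 7909) and HIS5 at 60 min (616, 867.5) were the others. The share of all genes outside the WT range is not given here, so the counts above and below have no background to be read against. With 1 array per time there is no test, and all met31 arrays were deposited unscaled while the WT arrays were not, so strain and deposited scale cannot be told apart.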

How the results depend on the processing

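Counts are of members called, in the order of the report. Without rescaling the deposited values, WT over time gave 0, leu3, gat1 and gat1leu3 against WT 6 at 0 min, 6 in strain means and 30 at 10 to 60 min, the double deletions against gcn4 12, deletion strains over time 0, strains without GCN4 at 45 and 60 min 24, and each strain against its own 0 min 0 without GCN4 and 0 with it. That setting also turned 11 single values: HIS2 in gat1gcn4 at 0 min (-2.47), HIS1 (-3.08), HIS2 (-2.74), HIS4 (-3.07), HIS5 (-2.92) and HIS7 (-2.97) in gat1leu3 at 0 min, and in the strain means of gcn4leu3 against gcn4 HIS2 (-1.72), HIS4 (-1.87), HIS5 (-1.65), HIS6 (-1.30) and HIS7 (-1.62). These values keep the deposited difference in scale by construction. Among arrays deposited at the common scale, WT over time gave 4, WT times against 0 min 3, deletion strains over time 8 of 18, leu3 and gat1 at 10 to 60 min 8 of 60, and own 0 min 5 of 36 without GCN4 and 9 of 84 with it. With array weights the counts were WT over time 5, WT times 6, double deletions against gcn4 2, response at 60 min 4, deletion strains over time 19, strains without GCN4 at 45 and 60 min 7, strains with GCN4 at 10 to 60 min 11, and own 0 min 21 and 17. With only the compared strains fitted they were WT over time 5, WT times 2, response 1, strains without GCN4 at 45 and 60 min 4, and own 0 min 9 and 10. Median centring gave 1 for strains with GCN4 at 10 to 60 min. The replicate block gave 1 for WT times against 0 min and 3 and 12 against own 0 min, and the cause of these changes was not tested. Whether a number marks 1 culture across the times of a strain is not settled by the labels: deviations at 0 min and a later time with the same number correlated at -0.2 to 0.6 (median 0.215), 91 of 120 over 0.1. Between strains numbers were not taken as pairs, and the replicate block there gave counts within 1.5 times.

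With each replicate left out in turn, the counts ran from 1 to 1 for WT over time, 0 to 0 for WT times, 5 to 12 for strains without GCN4 at 0 min, 0 to 1 for strains with GCN4 at 0 min, 10 to 13 and 0 to 0 for their strain means, 1 to 1 for double deletions against gcn4, 0 to 1 for the response at 60 min, 3 to 10 for deletion strains over time, 23 to 32 for strains without GCN4 at 10 to 30 min, 0 to 4 at 45 and 60 min, 0 to 3 for strains with GCN4 at 10 to 60 min, and 0 to 4 and 2 to 14 against own 0 min. The alternatives for comparisons at single times after 0 min and for leaving out the 2 libraries set apart were chosen after seeing the data. Of the other single values under alternatives, 4765 kept their direction and side of the threshold, 84 passed it newly and 102 no longer passed it.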
